A study of Mus musculus with 10 samples.

Results

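Processed pseudogenes were examined in round spermatids, the haploid male germ cells that follow meiosis, after a short heating of the testis. They were chosen by their summed counts, as the rows of the count table with the gene class processed pseudogene and 50 or more counts summed over the 10 libraries, with 4930555K19Rik left out. This gave 2291 of 10002 processed pseudogenes, among 55401 genes and 1146 subfamilies of transposable elements (TE) in the table. Of the other processed pseudogenes, 2982 had no count and 4728 had 1 to 49 counts. Just inside the limit, Gm8137, Gm41041 and Gm49483 each had 50 counts in all, and just outside it, Gm9234, Gm5582 and Gm8894 each had 49.

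The mice were adult CD1 males, an outbred stock. Under isoflurane, the testes were kept against water of 33 °C in the control group or 42 °C in the heat group, for 30 minutes in both. Every mouse, controls included, recovered from the anaesthesia and was then killed for the isolation of round spermatids. Each group had 5 mice and 1 library of total RNA per mouse, made by a stranded protocol with ribosomal RNA removed, so p-values measure the spread between these mice. The cells were a bulk isolate, in which fewer cells of a type and less RNA per cell cannot be told apart.

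A processed pseudogene is a DNA copy of a spliced mRNA that the proteins of LINE1 (L1) elements wrote back into the genome. Such a copy lacks introns and as a rule its own promoter, and mutations then build up in it. It can be transcribed from a promoter nearby, from within a host gene or from a gene upstream whose transcript runs past its end. Copies are inherited only when they arise in the germ line or early embryo, and genes with abundant mRNA there, such as those of ribosomal proteins, have many. Because a young copy is nearly identical to its parent mRNA, a short read can match both.

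Sequence stretches are shown for 2 kinds of members, those with the strongest difference between the groups and those whose counts jumped between libraries. Each member is set against its most similar protein-coding transcript, here called the parent, in an ungapped stretch, with the bases that differ in capitals. The sequences are from the GENCODE M21 transcripts of GRCm38. Gm13333 is shown for chr2:18759242-18759391 on the + strand, where 16 of 150 bases differ from Nsa2, a ribosome assembly factor.
Gm13333: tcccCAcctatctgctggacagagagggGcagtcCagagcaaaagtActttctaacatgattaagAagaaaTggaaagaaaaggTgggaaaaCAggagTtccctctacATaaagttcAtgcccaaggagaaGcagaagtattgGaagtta
Nsa2: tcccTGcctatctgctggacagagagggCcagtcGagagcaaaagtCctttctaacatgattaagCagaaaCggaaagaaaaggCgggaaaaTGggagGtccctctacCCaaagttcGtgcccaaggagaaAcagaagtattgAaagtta

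Gm13259 is shown for chr4:133281159-133281278 on the - strand, where 18 of 120 bases differ from Dppa3, a factor of oocytes and primordial germ cells.
Gm13259: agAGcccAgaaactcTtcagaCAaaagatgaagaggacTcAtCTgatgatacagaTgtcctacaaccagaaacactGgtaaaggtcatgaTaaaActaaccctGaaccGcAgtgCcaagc
Dppa3: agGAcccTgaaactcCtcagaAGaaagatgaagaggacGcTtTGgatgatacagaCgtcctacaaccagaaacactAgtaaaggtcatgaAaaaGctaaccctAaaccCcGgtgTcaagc

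Gm19097 is shown for chr14:61284638-61284787 on the - strand, where 35 of 150 bases differ from Eif3e, a subunit of the translation initiation factor eIF3.
Gm19097: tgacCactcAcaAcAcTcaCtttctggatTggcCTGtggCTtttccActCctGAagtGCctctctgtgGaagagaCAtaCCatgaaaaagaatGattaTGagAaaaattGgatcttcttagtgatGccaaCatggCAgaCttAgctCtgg
Eif3e: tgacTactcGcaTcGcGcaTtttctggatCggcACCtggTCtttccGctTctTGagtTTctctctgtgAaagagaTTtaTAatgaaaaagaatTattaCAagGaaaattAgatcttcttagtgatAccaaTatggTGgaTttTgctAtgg

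Copies with far fewer differences come next, since these bear on which locus a read can be assigned to. Vcp-rs is shown for chrX:104346696-104346815 on the - strand, in the stretch with the most mismatches to Vcp, an ATPase that unfolds ubiquitylated proteins. There, 3 of 120 bases differ.
Vcp-rs: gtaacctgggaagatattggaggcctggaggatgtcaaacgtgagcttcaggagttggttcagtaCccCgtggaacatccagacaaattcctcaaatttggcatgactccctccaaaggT
Vcp: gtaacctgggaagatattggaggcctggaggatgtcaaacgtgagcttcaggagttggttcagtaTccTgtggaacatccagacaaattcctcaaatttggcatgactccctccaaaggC

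Gm15772 is shown for chr5:3236599-3236718 on the + strand, also in its most divergent stretch, where 2 of 120 bases differ from Rpl26, a protein of the large ribosomal subunit.
Gm15772: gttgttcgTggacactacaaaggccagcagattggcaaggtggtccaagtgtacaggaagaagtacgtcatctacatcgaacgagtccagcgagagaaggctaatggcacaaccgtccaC
Rpl26: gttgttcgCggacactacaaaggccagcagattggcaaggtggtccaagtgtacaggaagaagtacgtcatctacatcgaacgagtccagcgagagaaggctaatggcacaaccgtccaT

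Depth and sample identity were as follows. Total counts per library ran from 60623568 in 42 °C replicate 2 to 117723075 in 33 °C replicate 2. In 42 °C replicate 2, TE took 16.2% of all counts, against 4.62% to 9.07% in the other 9 libraries. The 10 round spermatid markers summed to between 1533 and 2273 CPM (counts in each 1000000 counts of the library) at 33 °C and between 1522 and 3308 CPM at 42 °C, against 120 to 241 CPM for 6 spermatocyte markers over all libraries. The 5 marker lists of other testis and blood cells each summed to at most 17.4 CPM, and no marker of any list passed the test between groups. The libraries of 42 °C replicates 1 and 3 were closer to each other than any other pair within a group, at a chi-square of 13.9 for each degree of freedom against 52.6 or more, which is still above sampling noise. Where a called member or a median is also given under another setting, the value with the 2 libraries summed into 1 is given too.

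Most processed pseudogenes with counts were scarce. Their median was 205 counts over the 10 libraries, 418 had 1000 or more and 72 had 10000 or more. All members together held 3679380 counts, of which the 8 most abundant took 26.3% and Gm7444 alone 9.61%. They took 0.405% ± 0.0198 (SD, n = 5) of each library's gene counts at 33 °C and 0.449% ± 0.0363 (SD, n = 5) at 42 °C. The highest share, 0.507%, was that of 42 °C replicate 2. Without that library the 42 °C share was 0.434% ± 0.0181 (SD, n = 4). Members were longer than the other processed pseudogenes, with a median length in the table of 690 against 513 bases. The limit of 50 counts was not corrected for length, which favours longer rows, so this difference is a description only. The X chromosome carried 150 of them, or 6.55%, against 9.31% of all processed pseudogenes.

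A parent with at least 70% identity over at least 50% of the copy was found for 2130 members, or 93.0%, among 1053 distinct parents. The median identity was 94.2%, with quartiles of 87.2% and 98.0%. At 99% or more, 331 members were near-identical to their parent, and 68 of these were identical over the aligned part. Counts of such copies are uncertain, because the treatment of reads with several alignments is not given in the sources used here. Ribosomal proteins were the largest family, with 467 members, and Gapdh, the glycolytic enzyme, was the parent with the most, 53. By position, 433 members lay inside another gene on the same strand, 315 inside a gene on the other strand only, and 346 within 20 kb past the end of a gene on the same strand.

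The most abundant members had counts in every library at both temperatures. Gm7444 (ENSMUSG00000110989, chr9:56027742-56030169, + strand), an 89.4% copy of the E3 ubiquitin ligase gene Rnf19a, had 392, 451, 370.5, 458 and 377 CPM in the 5 libraries at 33 °C. At 42 °C it had 435, 204, 391, 289.8 and 349 CPM. The groups overlapped, 42 °C replicate 2 was the lowest, and the log2 fold change of -0.30 (SE 0.18) did not pass the edgeR test (adjusted p = 0.498). Next in mean level came Gm9805, a 74.2% match to the zinc finger gene Zfp945, and Morf4l1-ps1, a 99.8% copy of the chromatin protein gene Morf4l1. Gm9805 averaged 147 ± 22.9 CPM at 33 °C and 124 ± 30.7 CPM at 42 °C (SD, n = 5 each). Gm9805 stood far above the transcript it matches best, holding 98.7% to 99.7% of the counts of the pair in each library, whereas Morf4l1-ps1 held 6.75% to 12.4% of its pair.

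The other 5 of the 8 most abundant were AC156021.1, which had no sequence in GENCODE M21, Gm6981, a 94.2% copy of Gapdh, 1700049L16Rik, an 84.2% copy of Jpt2, Rps2-ps13, a 99.2% copy of the ribosomal protein gene Rps2, and Mospd4, a 73.7% match to the membrane protein gene Vapa. Gm6981 held 65.1% to 90.5% of the counts shared with Gapdh, so the copy had more counts than its parent in every library. None of the 8 passed the test, and their log2 fold changes lay between -0.32 for Morf4l1-ps1 and 0.31 for 1700049L16Rik. Per kilobase of exon, Gm7444 averaged 153 CPM over the 10 libraries, 1700049L16Rik 144 CPM and Morf4l1-ps1 138 CPM.

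Of the 2291 members, 1660 passed the filter on low counts and were tested, and 631 were not. Of those tested, 11 reached the filter level of 0.107 CPM in all 5 libraries at 42 °C and in none at 33 °C, 1 did so the other way round, and 1055 reached it in all 10. At 42 °C, 3 members rose: Gm13333, Gm13259 and Gm19097. That is 0.181% of those tested, and 0.0884% of all 26025 features tested were called higher. All 3 are among the 11 members that passed the filter through the 42 °C libraries alone and so had to differ, and the share of members called is given as a description only. Among features with a mean under 1 CPM, to which all 3 belong, 0.214% were called higher, and 0.247% of the members at that level. No member was called lower by edgeR, against 0.00384% of all features. At an unadjusted edgeR p below 0.05, 27 or 1.63% were lower, against 2.94% of all features. DESeq2 and limma voom each called 1 member lower, for which the share of all features is not given here. DESeq2 called 16 members higher, which is 0.964% of those tested against 0.988% of all features. With limma voom 15 were called higher, 0.904% against 0.476%. Among these, chosen after its values were seen, was Rbm6-ps1, a copy of the RNA-binding protein gene Rbm6, with 285 counts at 33 °C and 813 at 42 °C.

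Gm13333 (ENSMUSG00000081139, chr2:18758984-18759764, + strand), the 91.2% copy of Nsa2 shown above, was almost without counts in control cells. It had 1, 0, 2, 0 and 0 counts in the 33 °C libraries and 19, 23, 13, 16 and 26 in the 42 °C libraries. Every heated library lay above every control, at 0.222 ± 0.0839 against 0.00627 ± 0.00918 CPM (SD, n = 5 each). From 3 and 97 counts in the groups, the ratio corrected for library size was 34.4, with a 95% counting interval of 11.4 to 169.9 that covers counting error only. The fitted log2 fold change, which depends on the prior count at so few control counts, was 4.87 (SE 0.63), with an edgeR adjusted p of 0.0113. It was called in 10 of 10 fits that left out 1 library, at an adjusted p of 0.0207 with 42 °C replicates 1 and 3 summed, and at 0.207 with the replicate number as a block.

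Neither Nsa2 nor the gene before Gm13333 moved with it. Gm13333 begins 8571 bases past the end of Spag6, which lies on the same strand and encodes a protein of the sperm axoneme, and it lies inside the lincRNA gene Gm20539 of the other strand. Spag6 averaged 217 ± 62.6 CPM at 33 °C and 215 ± 31.7 CPM at 42 °C (SD, n = 5 each), a log2 fold change of -0.01 (SE 0.19) that did not pass the edgeR test (adjusted p = 0.982). For Nsa2 the log2 fold change was -0.13 (SE 0.13), also not past the edgeR threshold (adjusted p = 0.648). Whether reads from either strand enter the count is not given in the sources used here.

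Gm13259 (ENSMUSG00000083241, chr4:133280857-133281312, - strand) rose from 15 counts over the controls to 85 over the heated libraries. Its counts were 3, 2, 4, 3 and 3 in the 33 °C libraries and 17, 24, 11, 18 and 15 in the 42 °C libraries. The controls averaged 0.0315 ± 0.00822 CPM and the heated libraries 0.199 ± 0.0939 CPM (SD, n = 5 each), with no overlap and 42 °C replicate 2 the highest. The log2 fold change was 2.60 (SE 0.41), with an edgeR adjusted p of 0.0383. The call held in 1 of 10 fits without 1 library, that without 42 °C replicate 3, and the adjusted p was 0.0607 without 42 °C replicate 2 and 0.0539 with replicates 1 and 3 summed. Its parent Dppa3 was at 0 in every control library and at 0.00201 ± 0.00449 CPM (SD, n = 5) in the heated ones. Gm13259 lies 11147 bases past Wdtc1, whose level was 687 ± 75.4 CPM in controls and 625 ± 90.3 CPM after heating (SD, n = 5 each).

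Gm19097 (ENSMUSG00000114920, chr14:61283780-61284788, - strand) rose from 11 counts to 98. The 33 °C libraries held 4, 2, 3, 0 and 2 counts and the 42 °C libraries 13, 27, 17, 22 and 19. The controls averaged 0.0230 ± 0.0162 CPM and the heated libraries 0.229 ± 0.105 CPM (SD, n = 5 each), again with no overlap and with 42 °C replicate 2 the highest. The log2 fold change was 3.23 (SE 0.53), with an edgeR adjusted p of 0.0477, and the call was lost in each of the 10 fits without 1 library and, at 0.0662, with replicates 1 and 3 summed. It lies 8192 bases past 1700109G14Rik, whose log2 fold change was 0.42 (SE 0.25) and did not pass the edgeR test (adjusted p = 0.493).

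**Figure D1:**
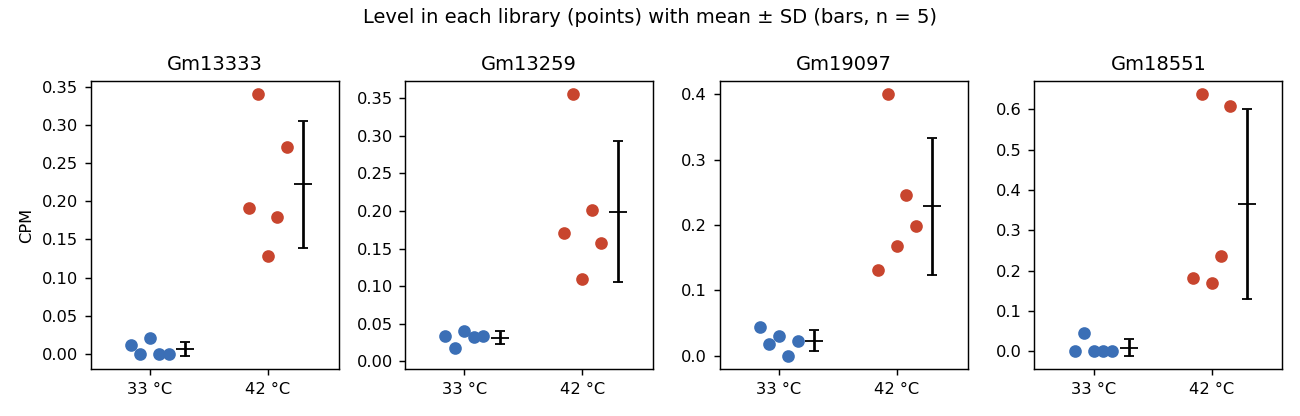
CPM of 4 members in each of the 10 libraries (points, 33 °C in blue and 42 °C in red), with the mean and SD of each group as black bars. In all 4 panels every 42 °C library lies above every 33 °C library, and for Gm13333 the control libraries lie between 0 and 0.0203 CPM. All 4 reached the filter level in the 42 °C libraries alone, so this lack of overlap was largely set by the filter.

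Gm18551, a 78.1% match to the repair and proteasome shuttle gene Rad23b, came next by p and missed the edgeR threshold. It had 5 counts at 33 °C, all of them in replicate 2, and 18, 43, 17, 21 and 58 counts in the 42 °C libraries, with an edgeR adjusted p of 0.0531. Gm18551 reached the filter level of 0.107 CPM in the 42 °C libraries alone, so its lack of overlap was largely set by the filter. It was called higher by DESeq2 (adjusted p = 1.69e-05) and by limma voom (adjusted p = 0.00462). Gm8174, a 92.5% copy of Gapdh that begins 7445 bases past Rai14, had 68 counts at 33 °C and 235 at 42 °C, a log2 fold change of 1.93 (SE 0.37) with an edgeR adjusted p of 0.127. DESeq2 called Gm8174 higher (adjusted p = 0.00063) and limma voom did not (adjusted p = 0.0502). Among members with lower values at 42 °C, Gm45456, a 97.9% copy of Abracl, had the smallest p. It had 86 counts at 33 °C and 14 at 42 °C, a log2 fold change of -2.50 (SE 0.61) with an edgeR adjusted p of 0.243, and it was the member that DESeq2 and limma voom called lower. The next 4, Gm7424, Gm45965, Gm48185 and Gm12919, had log2 fold changes between -1.47 and -0.54, and Gm45965 and Gm48185 did not overlap between groups.

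Members too scarce in one group to be tested, or nearly so, were looked up after their values were seen. Of all members, 8 had 5 or fewer counts at 33 °C and 1, Gm21930, had 5 or fewer at 42 °C. The share of all genes at that level is not given here. Among the 28174 genes with 50 or more counts, 4 had no count at 33 °C and 4 had none at 42 °C. Of the members, these numbers were 1 and 0. Gm7047, a 91.5% copy of the RNA-binding protein gene Hnrnpa3 that lies 12287 bases past Speer4f1, had 1, 1, 0, 0 and 0 counts at 33 °C and 21, 23, 13, 6 and 21 at 42 °C. The ratio corrected for library size was 44.7, with a 95% counting interval of 12.0 to 375. Gm7047 did not pass the filter, and it was called higher when no filter was used. Gm49483, a 74.4% match to Snrpg that lies 3425 bases past Tmbim6, had no count at 33 °C and 16, 7, 12, 8 and 7 at 42 °C, at least 17.7-fold higher against a floor of 3 counts over the control group. Like Gm13333, both were present in all 5 heated libraries, and neither Speer4f1, with a log2 fold change of 0.07, nor Tmbim6, with -0.02, passed the test. Gm7047 and Gm49483 met the limit of 50 counts through the 42 °C libraries, so their difference is a description only.

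Gm2892 and Gm3757, both on the X chromosome and both about 99% identical to Gm5926, differed from this. Gm2892 had 142 and 178 counts in 42 °C replicates 4 and 5 and at most 2 in each of the other 8 libraries. Gm3757 had 30 and 156 counts in the same 2 libraries and at most 3 elsewhere. These 2 libraries were also the highest for the X-linked members Gm5923, at 6.48 and 8.62 CPM against at most 0.981 elsewhere, and Gm5924, at 3.09 and 3.39 CPM against at most 0.21 elsewhere. In all 4 members, the other 3 heated libraries lay at or near the level of the controls.

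Over all tested members the shift was small. The median log2 fold change was 0.08, against -0.01 over all features tested and -0.07 over protein-coding genes. It was 0.16 for lincRNA genes, 0.15 for unprocessed pseudogenes and 0.04 for transcribed processed pseudogenes. Of the tested members, 944 or 56.9% had a log2 fold change above 0, against 48.9% of all features. Before adjustment, at p under 0.05, 189 members or 11.4% were higher, against 8.56% of all features, and 27 or 1.63% were lower, against 2.94%. Without overlap between groups, 37 members or 2.23% were higher and 11 or 0.663% were lower, against 1.32% and 0.68% of all features. These shares are a description only. Of the tested members, 11 passed the filter through the 42 °C libraries alone, so their lack of overlap was largely set by it. The median level was also lower, at 0.225 CPM for members against 3.01 CPM for all features. The median was 0.04 without 42 °C replicate 2, 0.11 with 42 °C replicates 1 and 3 summed, and -0.01 with limma voom, which weights libraries.

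**Figure D2:**
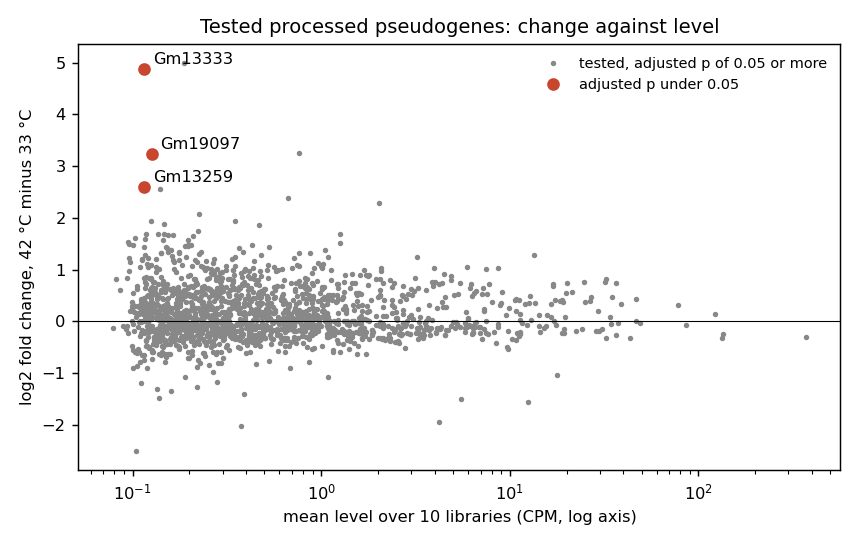
Log2 fold change of the 1660 tested members, 42 °C minus 33 °C, against their mean level over 10 libraries on a log axis. The 3 members past the threshold, in red, lie at the low end of the levels, with log2 fold changes of 4.87, 3.23 and 2.60.

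By parent family, the tested members of ribosomal protein genes had a median log2 fold change of 0.08 (331 tested). At an unadjusted p under 0.05, 9.67% of them were higher and 1.51% lower, against 8.56% and 2.94% of all features. For copies of glycolytic enzyme genes the median was 0.30 (52 tested, 9.62% higher and 1.92% lower at that p), and for translation factors 0.04 (49 tested, with Gm19097 the 1 called). The copies of chaperone and prolyl isomerase genes had a median of -0.0018 (36 tested, 8.33% higher and 2.78% lower). The shares higher in these families lie near that of all features. For copies of RNA binding and splicing genes (52 tested), 13.5% were higher and 1.92% lower at that p. Of the 107 tested members with no parent found, 19.6% were higher and 0% lower, against 8.56% and 2.94% of all features. Their median was 0.33. It was 0.04 without 42 °C replicate 2 and 0.40 with 42 °C replicates 1 and 3 summed. None of the most abundant members of each family passed the threshold. They included Ptges3-ps, identical to the co-chaperone gene Ptges3 in the aligned part, Tubb4b-ps1, a copy of a beta tubulin gene, Gm3375, a copy of the proteasome gene Psmb5, and Gm12584, a 71.1% match to mitochondrial mt-Nd5 that lies inside Adad1.

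Of the 12 parents with 10 or more tested copies, looked up after the values were seen, Phgdh had the highest median, 0.72. Phgdh encodes the first enzyme of serine synthesis. Of its 13 copies 12 had a log2 fold change above 0 and 7 an unadjusted p under 0.05, and none passed the threshold or lacked overlap. Over all features, 48.9% were above 0 and 8.56% higher at that p, but Phgdh was singled out for its values. The copies are spread over several chromosomes and are 91.6% to 98.7% identical to Phgdh, so reads may be shared among them, and they are not independent measurements. Gm8341, for one, averaged 3.12 ± 1.25 CPM at 33 °C and 5.86 ± 2.11 CPM at 42 °C (SD, n = 5 each). The median level of the copies, 2.70 CPM, was above that of Phgdh itself, 0.737 CPM, and the log2 fold change of Phgdh was 0.23 (SE 0.40). The median of the Phgdh copies was 0.64 without 42 °C replicate 2, 0.84 with 42 °C replicates 1 and 3 summed, and 0.51 with limma voom. Copies of Rpl29, at the other end, had a median of -0.22 over 20 tested members, and its parent one of -0.02.

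The medians are given by identity to the parent as a description, with no test between classes. With all 10 libraries the median log2 fold change was 0.25 for members of 70% to 80% identity, 0.26 for 80% to 90%, 0.12 for 90% to 95%, 0.06 for 95% to 99% and -0.10 for 99% to 100%. The parents of these members had medians between -0.11 and -0.07 in every class, so that near-identical copies had about the value of their parents. Without 42 °C replicate 2 the members' medians were 0.05, 0.11, 0.04, 0.07 and -0.01 in the same order, and with limma voom they were -0.01, 0.06, -0.02, -0.0012 and -0.05. The range over the classes was thus smaller without that library, the one with the highest share of counts on TE, and with limma voom. Summing 42 °C replicates 1 and 3 instead widened this range, to medians of 0.30, 0.33, 0.14, 0.07 and -0.13 from the lowest to the highest identity.

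**Figure D3:**
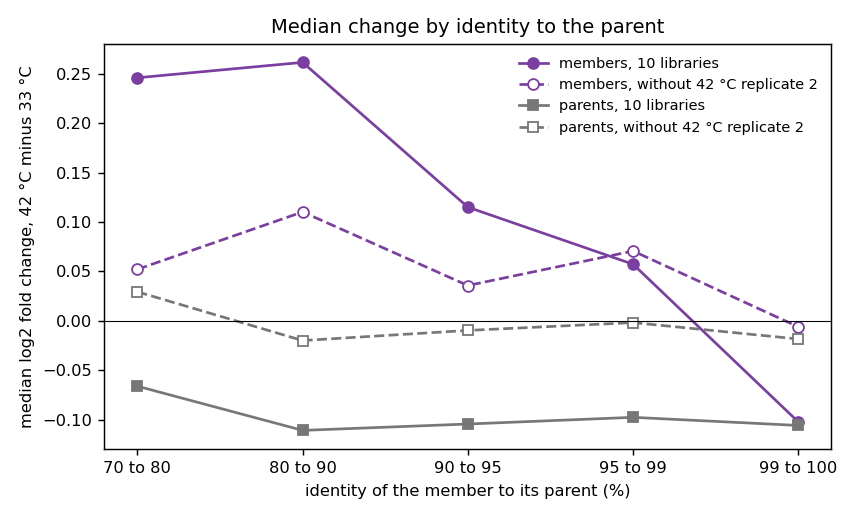
Median log2 fold change, 42 °C minus 33 °C, of tested members (circles) and of their parents (squares) by identity to the parent in percent, with all 10 libraries (solid) and without 42 °C replicate 2 (dashed). With all libraries the members' medians lie between -0.10 and 0.26, and without that library between -0.01 and 0.11. With 42 °C replicates 1 and 3 summed, not drawn, they lie between -0.13 and 0.33.

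Members were also grouped by position. Those inside a gene on the same strand had a median of 0.13 (319 tested). It was -0.06 without 42 °C replicate 2 and 0.20 with 42 °C replicates 1 and 3 summed. Members inside a gene on the other strand had a median of 0.08 (230 tested), which was 0.09 and 0.07 in these 2 settings. Those past a same-strand gene had a median of 0.01 (254 tested). Of these, 12 or 4.72% were higher and 5 or 1.97% lower without overlap between groups, against 1.32% and 0.68% of all features. The 12 included Gm13259 and Gm19097, which passed the filter through the 42 °C libraries alone, so this share is a description only. The share higher without overlap was 1.57% inside a gene on the same strand, 1.3% on the other strand and 1.98% in the remaining members. Of those past a gene, 11.4% were higher at an unadjusted edgeR p under 0.05, as of all members, against 8.56% of all features. Their share with a log2 fold change above 0 was 51.6%, against 56.9% of all members and 48.9% of all features. On chromosome 17, 10 members lie between Kat2b and Sult1c1, a group looked up after its values were seen. There, Gm49917, Ckb-ps2 and Hcfc1r1-ps1 were higher at 42 °C without overlap, with log2 fold changes of 1.68, 2.56 and 1.88 and edgeR adjusted p-values of 0.144, 0.160 and 0.254. DESeq2 called each of them higher, at adjusted p-values of 0.0193, 0.00295 and 0.0445, and limma voom called Gm49917 alone (adjusted p = 0.0459). Over all features, 1.32% were higher without overlap. DESeq2 called 0.988% of all features higher and limma voom 0.476%. Nothing is read from these 3 since the group was picked for its values. Their neighbours Mark1-ps2, at 37.8 ± 5.15 CPM in controls and 37.0 ± 7.17 CPM after heating (SD, n = 5 each), and Mark1-ps1 had log2 fold changes of -0.03 and 0.08.

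A different pattern concerned single mice and not the groups. Among the 444 members with a mean of 1 CPM or more, 20 or 4.5% had libraries in 2 separate sets, with a gap of at least 2 log2 units between neighbouring libraries on the scale log2(CPM + 0.1). Of all 17132 features at that level 0.619% had such a gap, and of protein-coding genes 0.403%. All 20 had a parent, 15 of them at 95% identity or more, and none passed the edgeR test between groups. Of all 2291 members, 93.0% had a parent, with 655 at 95% to 99% identity and 331 at 99% or more. The shares among the 444 are not given here. At a gap of 1 log2 unit there were 40 such members, or 9.01%, against 3.01% of all features. They were picked after their values were seen.

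**Figure D4:**
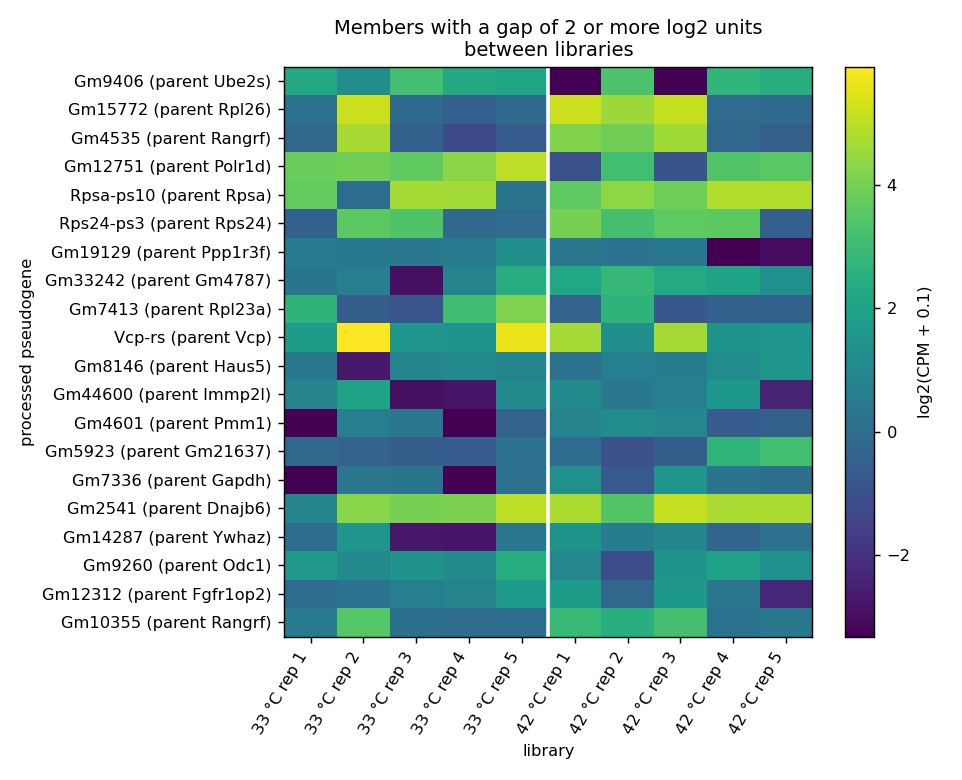
Level of the 20 members with a gap, as log2(CPM + 0.1), in each library, with the 5 control libraries left of the white line and the 5 heated ones right of it. The libraries of 42 °C replicates 1 and 3 are on the same side of the gap in all 20.

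Vcp-rs on the X chromosome had 3.35, 60.4, 2.77, 2.65 and 50.6 CPM in the 33 °C libraries and 25.2, 2.36, 25.7, 2.62 and 2.83 CPM in the 42 °C libraries. So 4 libraries, 2 of each group, were high and the other 6 lay between 2.36 and 3.35 CPM. Gm15772 was high in 33 °C replicate 2, at 36.3 CPM, and in 42 °C replicates 1, 2 and 3, at 36.3, 23.0 and 34.7 CPM, and lay between 0.598 and 0.982 CPM in the other 6. Its parent Rpl26 was lowest in those same 4 libraries, at 66.9, 70.9, 43.1 and 65.0 CPM against 83.4 to 103 CPM in the others. The Vcp gene had 147 and 127 CPM in the 2 controls with the most Vcp-rs and 168 to 215 CPM in the other 3 controls. At 42 °C it had 168 and 154 CPM in the 2 libraries high for Vcp-rs and 143, 149 and 168 CPM in the other 3, so Vcp was not lower there. Both copies differ from their parents at few positions, as the stretches above show.

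**Figure D5:**
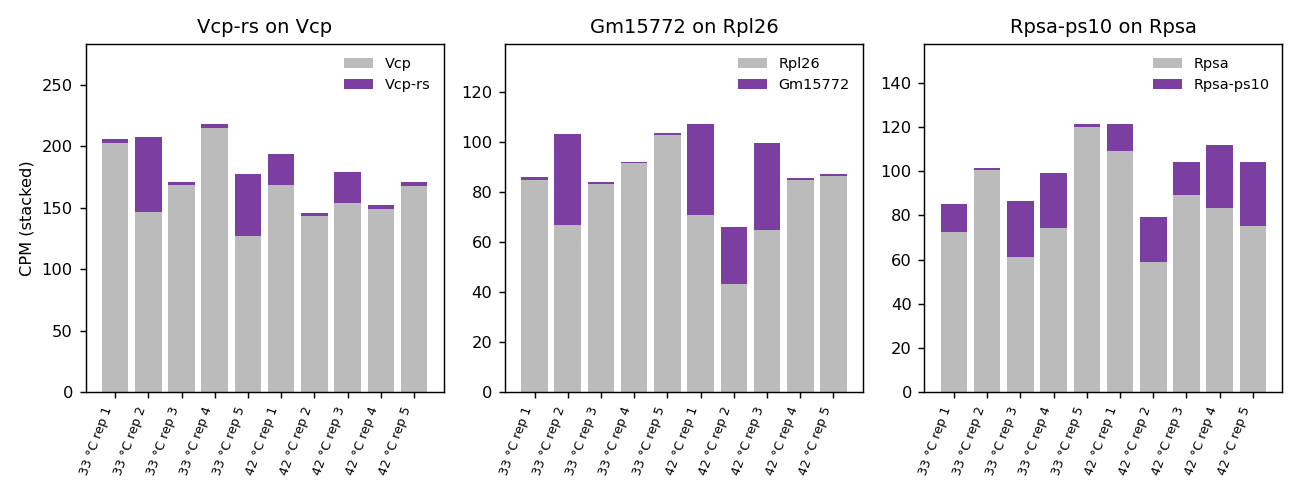
CPM of 3 near-identical members (purple) stacked on their parents (grey) in each library. Vcp-rs is high in 33 °C replicates 2 and 5 and in 42 °C replicates 1 and 3. Gm15772 is high in 33 °C replicate 2 and 42 °C replicates 1, 2 and 3. Rpsa-ps10 is near 1 CPM in 33 °C replicates 2 and 5.

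Other members split the mice differently. Gm4535 and Gm10355, both copies of Rangrf, which encodes a Ran-binding protein, were high in the same 4 libraries as Gm15772, though they lie on chromosomes 7 and 3 and Gm15772 on chromosome 5. Rpsa-ps10, a 99.3% copy of the ribosomal protein gene Rpsa, had 0.86 and 1.07 CPM in 33 °C replicates 2 and 5 and 12.3 to 28.7 CPM in the other 8 libraries. Gm9406 was listed at 0 counts in 42 °C replicates 1 and 3 and had 2.22 to 10.1 CPM in the others. Gm12751, identical to the polymerase subunit gene Polr1d in the aligned part, was the 1 gap member whose groups did not overlap, with 12.6 to 32.2 CPM at 33 °C and 0.392 to 11.6 CPM at 42 °C. Its 2 lowest libraries were 42 °C replicates 1 and 3, at 0.392 and 0.426 CPM, and its log2 fold change of -1.56 did not pass the edgeR test (adjusted p = 0.456).

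The libraries of 42 °C replicates 1 and 3 lay on the same side of the gap in all 20 of these members. The other 44 pairs of libraries did so in 8 to 17 of them. In the 86 other features with a gap, these 2 libraries shared a side in 84, and the other pairs in 37 to 77. With the 2 libraries summed into 1, Gm13333 was the 1 member still called higher.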

How the data were processed

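The measurements were raw read counts per gene and TE subfamily, deposited by the authors without normalization in 1 table. Per the submitters' processing notes, DRAGEN, cutadapt and Trim Galore are listed with no role, as are GRCm38 and mm10. How reads were counted, with which strand setting and with what treatment of multiple alignments, is not given in the sources used here. Total counts per library ran from 60623568 to 117723075.

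The group was the sole term of a quasi-likelihood fit in edgeR 4.0.16 (R 4.3.3). TMM factors were taken over genes and TE, filterByExpr was run with its count limit at 10, its total limit at 15 and groups of 5, and p-values were adjusted by Benjamini-Hochberg over all 26025 features (threshold 0.05). CPM was computed from the counts with library sizes scaled by TMM. Fold changes are 42 °C minus 33 °C. Alternatives were DESeq2 1.42.0, limma 3.58.1 (voom), other normalizations, no filter, a replicate block and leaving out each library. The fit was tested on simulated data.

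Parents were the best blastn 2.17.0 matches of each member's GENCODE M21 sequence to protein-coding and mitochondrial transcripts, where 2275 members had a sequence and 16 had none. Families went by parent symbol.

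The members, lists and tests were chosen with earlier results of these data known. Named genes were those past the threshold and Gm13333, the 8 of highest mean CPM, the 5 of smallest p in each direction, the most abundant of each family, the 3 at either side of the 50-count limit, and the parent, host or upstream gene of these. Others are said to be chosen after their values were seen. Intervals cover counting error only.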

Additional observations from a re-analysis of the deposited data

Results flagged for a closer look

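In groups of 5 libraries, a single library stood apart from the other 4 by Dixon's criterion, a gap of more than 0.71 of the group's range, in 10 of 94 groups examined, which were the CPM of 46 members in each group and the share of gene counts on all members. Chance alone gives about 1 in 20 groups, but 20 of the members were picked for a gap between libraries, so their 5 flags in 40 groups cannot be set against that rate. The other named members had 5 flags in 52 groups, and the share had 0. At 33 °C, replicate 2 was the high library for Gm18551, which had all its control counts there (1.0 of the range), and for Gm15772 (0.989), Gm4535 (0.983) and Gm10355 (0.963), and replicate 5 was the high library for Gm19129 (0.900). At 42 °C, replicate 2 was the high library for Gm12584 (0.858) and Gm7413 (0.967) and the low library for Gm6981 (0.756) and Gm48185 (0.735), and replicate 4 was the high library for 1700049L16Rik (0.762).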

How the results depend on the processing

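The number of members called higher at 42 °C, 3 with edgeR, was 8 with no filter on low counts, 15 with limma voom, 16 with DESeq2, 1 with 42 °C replicates 1 and 3 summed (chosen after seeing the data) and 1 to 3 when 1 library was left out. The fits without 1 library did not call the same members. Gm13333 was called in 10 of 10, Gm13259 in 1 and Gm19097 in 0, and the other members called were Gm7047 and Gm34767. For the 8 with no filter, the share of all features is not given here. The number called lower, 0, was 1 with limma voom and 1 with DESeq2, again without a share of all features beside it. With the replicate number as a block, 0 members were called higher. The correlations between same-numbered libraries were -0.152, -0.332, -0.335, -0.411 and -0.122, none of them the best match. These correlations cannot show whether same-numbered mice shared a day or a batch, which was not tested. Within 5 kb, 117 members lay past a same-strand gene, and with a gap of 1 log2 unit, chosen after seeing the data, 40 members had a gap. Of 442 values of 26 named members under an alternative, 393 kept direction and call, 24 lost the call, 8 gained it and 17 changed sign. The sign changes were all in 4 abundant members with log2 fold changes near 0. AC156021.1 was at -0.037 with limma voom. Gm6981 was at 0.0099 with limma voom and ran from -0.128 to 0.056 when 1 library was left out, above 0 without 33 °C replicate 5 or 42 °C replicate 2. Rps2-ps13 was at 0.0046 with no filter and 0.095 with limma voom, and ran from -0.103 to 0.096, above 0 without 33 °C replicate 2 or 5 or 42 °C replicate 2. Mospd4 was at -0.0048 with the block and -0.025 with replicates 1 and 3 summed, and ran from -0.048 to 0.11. The cause of these differences was not tested. Low counts limit the members that differed, since the 3 called had 3 to 15 counts over the control group.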
